A study of Mus musculus with 18 samples.

Results

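The unfolded protein and heat shock response genes described here are 40 genes of protein folding, drawn up by known function and matched by gene symbol to the authors' deposited table of 13816 gene IDs. All 40 were found in it, each under 1 gene ID. They fall into 8 roles: 11 chaperones of the endoplasmic reticulum (ER), 3 protein disulfide isomerases, 4 genes of ER-associated degradation, 5 sensors and transcription factors, 5 targets of ATF4 and CHOP, 4 genes of HSF1 and its co-chaperones, 6 cytosolic heat shock proteins and 2 subunits of the mitochondrial chaperonin. The rule that chose them uses no measured value.

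RNA was sequenced from 18 samples of cells sorted from mouse dorsal skin, in 6 groups of 3. The groups were DPCP EpSCs, DPCP Germ and DPCP Bulge at day 2, and control EpSCs, control Germ and control Bulge at day 0. DPCP stands for diphenylcyclopropenone, which sensitizes skin on contact and inflames the treated area. Every DPCP sample was from day 2 and every control sample from day 0, so treatment and time cannot be told apart. The bulge and the hair germ are the stem cell compartments of the hair follicle. The labels do not spell out EpSCs, name the cells dermal keratinocytes although the protocol isolates hair follicle stem cells, and give no strain, age, sex, dose or vehicle. Nor do they tell whether each sample was its own animal. If samples within a group share an animal, the p-values reflect technical spread. If the populations were sorted from the same animals, the comparisons between populations do not allow for it, as they combine the errors as independent.

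Proteins that enter the ER are folded there by resident chaperones, and disulfide bonds are formed by protein disulfide isomerases. When unfolded proteins build up, the membrane sensors IRE1 (gene Ern1), ATF6 and PERK (gene Eif2ak3) start the unfolded protein response: IRE1 splices the Xbp1 mRNA, ATF6 is cleaved into a transcription factor, and PERK slows translation while letting Atf4 mRNA be translated. XBP1 and ATF6 raise chaperone and degradation genes, and ATF4 raises genes of amino acid supply and, through CHOP (gene Ddit3), of recovery or cell death. Unfolded protein in the cytosol instead frees the factor HSF1, which drives the heat shock proteins. Splicing of Xbp1, cleavage of ATF6 and phosphorylation by PERK are not seen in a gene-level table.

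The measured quantity is the log2 fold change of DPCP over control within a population, with the p-value and adjusted p beside it, all taken from the authors' deposited table; a log2 value of 1 is a fold of 2. Values per library could not be tied to samples by their column names, so no level per sample, standard deviation or sequencing depth is given, and the cell types the labels name could not be checked by marker levels. A 95% interval given here was rebuilt from the fold change and the authors' p by a normal score and is approximate. A gene was called higher or lower where the authors' adjusted p was under 0.05.

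In EpSCs from DPCP skin, most of the machinery that folds proteins in the ER was higher than in control EpSCs, while the phosphatase subunit gene Ppp1r15a and the cytosolic co-chaperone gene Dnajb1 were lower. Of the 40 genes, 22 were called higher and 3 lower in EpSCs, against 19.9% of all genes higher and 20.0% lower (39.9% either way). The members' median was 0.68 and that of all genes −0.00. In Bulge 9 were called higher and 1 lower, against 5.12% of all genes higher and 5.16% lower (10.3% either way), with a median of 0.80 against −0.02 for all genes. Without adjustment (p under 0.05), 24 of the 40 were higher and 1 lower in Bulge, beside 14.7% and 14.5% of all genes. In Germ 0 of the 40 were called, where 1.06% of all genes were (0.847% higher and 0.210% lower). That split of all genes in Germ was 117 higher and 29 lower, or 106 and 78 with the fold changes centred on their median. Without adjustment, 15 of the 40 were higher and 1 lower in Germ (13.6% and 12.0% of all genes), with a median of 0.50 against 0.10 for all genes. The fold change was above 0 in all 3 populations for 26 of the 40 genes (65.0%) and for 22.8% of all genes. The 3 populations share no control samples. Under the stricter Benjamini-Yekutieli adjustment 16 of the 40 were called in EpSCs and 0 in Bulge, and at an adjusted p under 0.10 in place of 0.05 Bulge had 21.

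**Figure D1:**
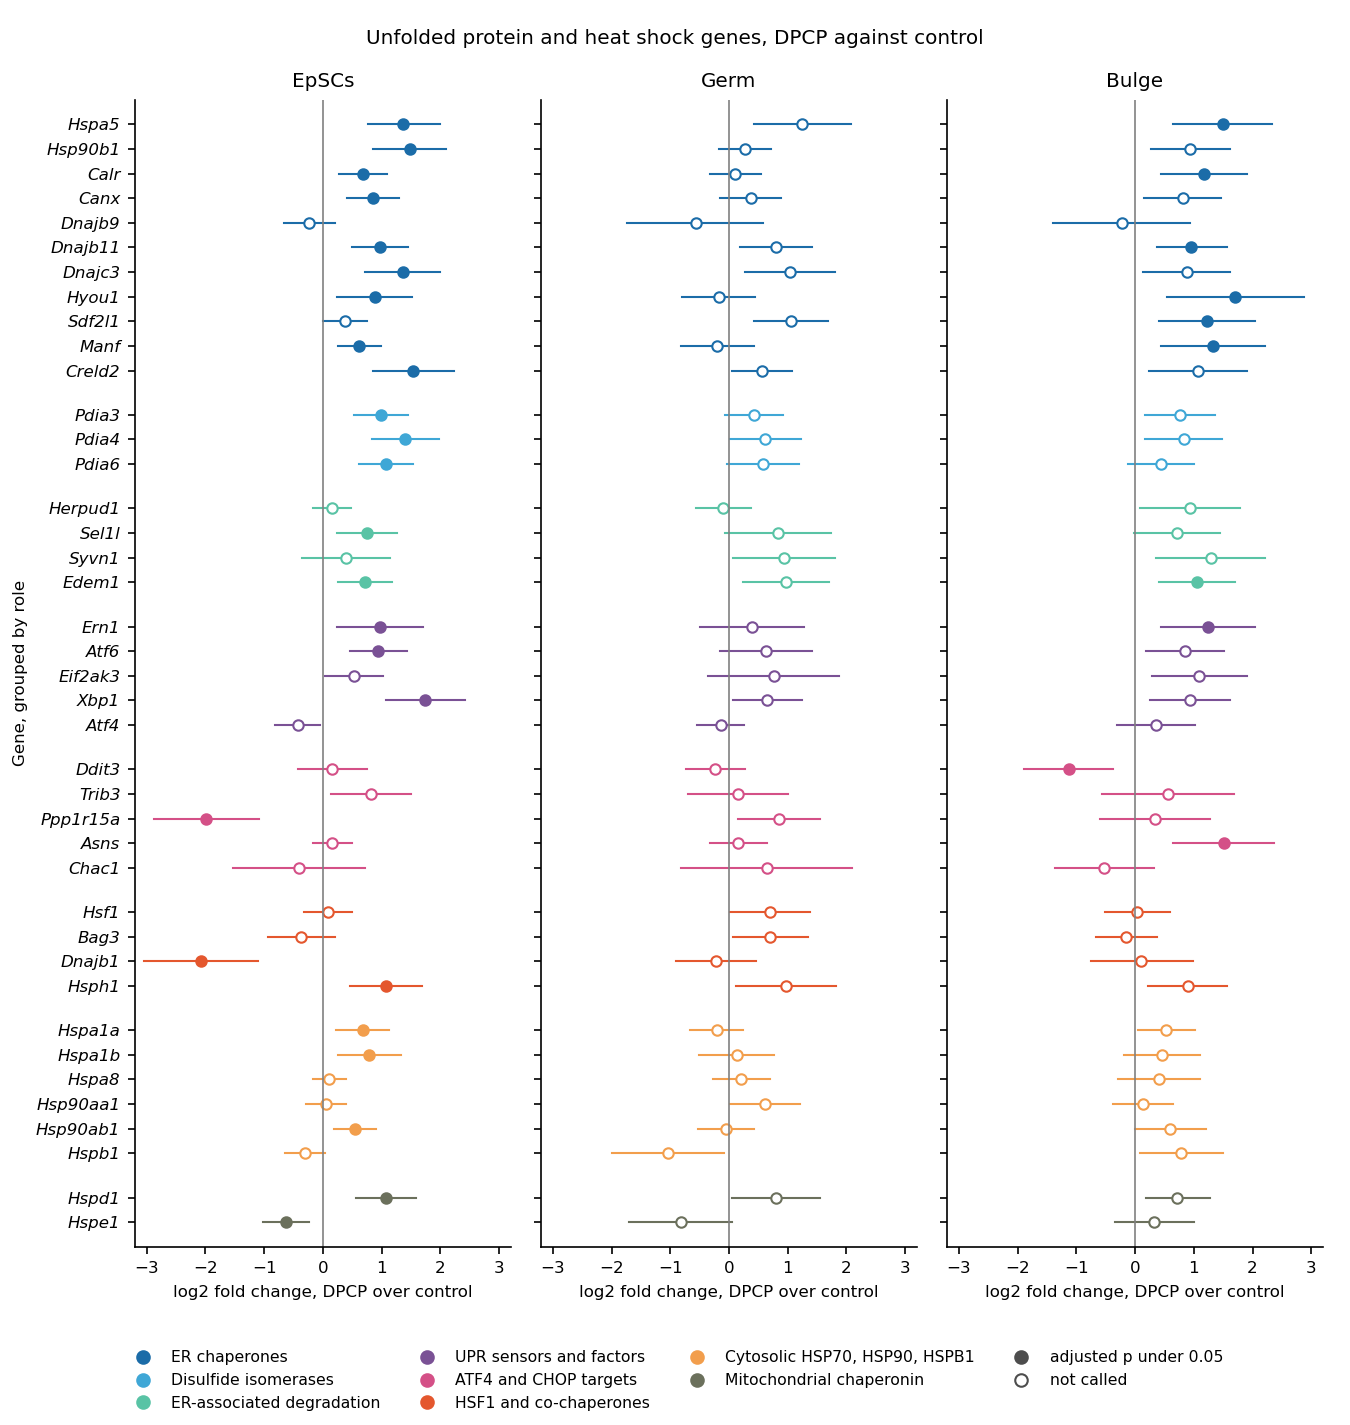
Log2 fold change of DPCP over control (horizontal axis) for each of the 40 genes (rows, grouped and coloured by role) in EpSCs, Germ and Bulge. Points are the authors' fold changes, filled where the authors' adjusted p was under 0.05, and bars are approximate 95% intervals rebuilt from the authors' p. In EpSCs 22 filled points lie right of 0 and 3 left of it, in Germ none is filled, and in Bulge 9 lie right and 1 left.

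The ER chaperones held the most calls. Of the 11, 9 were higher in EpSCs and 6 in Bulge, none was lower in either, and their medians were 0.88 in EpSCs, 0.37 in Germ and 1.07 in Bulge. Hspa5 encodes BiP, the ER member of the HSP70 family that also holds the 3 sensors inactive. In the authors' deposited table Hspa5 rose 2.59-fold in EpSCs (log2 fold change 1.37, 95% interval 0.76 to 1.99, adjusted p = 0.000265) and 2.81-fold in Bulge (1.49, 0.65 to 2.33, adjusted p = 0.0157). In Germ it stood at 1.25 with an interval of 0.43 to 2.07 and was not called (adjusted p = 0.0804). Among the 40 genes Hspa5 had the highest fold change in Germ, and its 3 fold changes lay within 0.24 of each other.

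Hsp90b1, which encodes the ER member of the HSP90 family (GRP94), rose 2.79-fold in EpSCs (1.48, adjusted p = 0.000109). It stood at 0.94 in Bulge (adjusted p = 0.0511) and 0.27 in Germ (adjusted p = 0.404), neither called. Creld2, which encodes a secreted ER stress protein, had the largest chaperone-group increase in EpSCs, 2.90-fold (1.54, adjusted p = 0.000284), and was at 0.56 in Germ and 1.07 in Bulge (adjusted p = 0.164 and 0.0755). The 2 lectin chaperones of glycoproteins had smaller fold changes than these in EpSCs, though not in every population: calreticulin (Calr) rose 1.60-fold in EpSCs (0.68, adjusted p = 0.00515) and 2.26-fold in Bulge (1.17, adjusted p = 0.0285) and stood at 0.11 in Germ (adjusted p = 0.763). Its membrane-bound relative calnexin (Canx) rose 1.81-fold in EpSCs (0.86, adjusted p = 0.00141) and stood at 0.37 in Germ and 0.81 in Bulge (adjusted p = 0.34 and 0.0894).

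The J-domain proteins pass clients to BiP and set off its ATPase. Dnajb11 rose 1.96-fold in EpSCs and 1.95-fold in Bulge (adjusted p = 0.000673 and 0.0275), and was at 0.80 in Germ (adjusted p = 0.117). Dnajc3 rose 2.57-fold in EpSCs (1.36, adjusted p = 0.000512) and stood at 1.03 in Germ and 0.88 in Bulge (adjusted p = 0.105 and 0.101). Dnajb9, the J protein best known as a target of spliced XBP1 and as a repressor of IRE1, went the other way in sign and was called nowhere, at −0.23 in EpSCs, −0.57 in Germ and −0.23 in Bulge (adjusted p = 0.406, 0.509 and 0.82). It was the only one of the 11 with a fold change below 0 in EpSCs or in Bulge.

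Hyou1 encodes a large ER chaperone that exchanges nucleotide on BiP, and had the highest fold change of the 40 genes in Bulge, 3.26-fold (1.70, 95% interval 0.54 to 2.87, adjusted p = 0.0444). It rose 1.84-fold in EpSCs (0.88, adjusted p = 0.0218) and stood at −0.17 in Germ (adjusted p = 0.723). Manf, a small secreted ER protein that binds BiP, rose 1.54-fold in EpSCs (adjusted p = 0.00471) and 2.50-fold in Bulge (adjusted p = 0.0402), and was at −0.20 in Germ (adjusted p = 0.685). Sdf2l1, which partners the J protein of Dnajb11, rose 2.33-fold in Bulge (1.22, adjusted p = 0.0406). It was not called in EpSCs (0.37, adjusted p = 0.102) or in Germ (1.05, adjusted p = 0.0644).

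The disulfide isomerases were called in EpSCs alone, which is not a tested difference between populations. In the authors' deposited table Pdia4 rose 2.64-fold (1.40, adjusted p = 6.57e-05), Pdia6 2.11-fold (1.07, adjusted p = 0.000183) and Pdia3, which works with the lectin chaperones, 1.98-fold (0.98, adjusted p = 0.000446). The 3 genes ranged from 0.43 to 0.61 in Germ and from 0.44 to 0.83 in Bulge. None of the 3 was called as different between populations in the approximate test of the difference of fold changes (smallest adjusted p 0.233, Pdia4, EpSCs minus Germ).

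ER-associated degradation returns misfolded proteins to the cytosol. Edem1, which selects glycoproteins for it, rose 1.64-fold in EpSCs (0.71, adjusted p = 0.01) and 2.07-fold in Bulge (1.05, adjusted p = 0.0275), and stood at 0.97 in Germ (adjusted p = 0.109). Sel1l encodes the scaffold of the ubiquitin ligase HRD1 and rose 1.68-fold in EpSCs (0.75, adjusted p = 0.0137); it was at 0.83 in Germ and 0.71 in Bulge (adjusted p = 0.225 and 0.176). The ligase itself, Syvn1, was called nowhere, at 0.39 in EpSCs, 0.93 in Germ and 1.29 in Bulge (adjusted p = 0.423, 0.173 and 0.0559). Herpud1, an adaptor of the same complex and a common marker of ER stress, was also called nowhere, at 0.15, −0.10 and 0.93 in the same order (adjusted p = 0.475, 0.799 and 0.136). Over the 18 genes of ER folding and degradation together, 14 were called higher in EpSCs with a median of 0.87 and 7 in Bulge with a median of 0.95, and 0 were called lower in either.

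The ER stress response element (ERSE), CCAAT and CCACG with 9 bases of any kind between them, is bound by ATF6 with NF-Y and was defined on promoters of ER chaperone genes, so its presence there is no finding. RefSeq promoter sequence (GRCm38.p6, from 250 bases before to 50 after the start site, both strands searched) was at hand for 33 of the 40 genes. The element was found in 8 of them (24.2%) and in 37 of 27025 genes in all (0.137%). The 9 matches are shown because they carry the letters the chaperone genes share, with the fixed bases in capitals and the spacer in lower case, each read 5′ to 3′ along the strand that holds the motif.
Hspa5 (chr2:34772025-34772043, + strand): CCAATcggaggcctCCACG
Hsp90b1 (chr10:86705638-86705656, − strand): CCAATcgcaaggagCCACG
Hsp90b1 (chr10:86705533-86705551, + strand): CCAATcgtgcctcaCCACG
Calr (chr8:84847075-84847093, + strand): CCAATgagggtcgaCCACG
Canx (chr11:50325800-50325818, − strand): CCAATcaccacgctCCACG
Dnajc3 (chr14:118937827-118937845, + strand): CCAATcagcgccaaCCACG
Creld2 (chr15:88819520-88819538, − strand): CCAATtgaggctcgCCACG
Pdia6 (chr12:17266491-17266509, + strand): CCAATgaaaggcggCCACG
Syvn1 (chr19:6046532-6046550, + strand): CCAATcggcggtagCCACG
The matches in Calr and Creld2 and the second in Hsp90b1 run against the direction of the gene.

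The 250 bases before the start are given for Hspa5 and Calr to show where the element sits. Of the genes called higher in both EpSCs and Bulge, these alone had a match to it. Dnajb11, also called in both, holds no ERSE in its 250 bases, and Manf had no promoter sequence at hand. Capitals mark the element's fixed bases. In Calr they appear as their reverse complement because the element is on the other strand.
Hspa5 (GRCm38.p6, chr2:34771840-34772089, + strand): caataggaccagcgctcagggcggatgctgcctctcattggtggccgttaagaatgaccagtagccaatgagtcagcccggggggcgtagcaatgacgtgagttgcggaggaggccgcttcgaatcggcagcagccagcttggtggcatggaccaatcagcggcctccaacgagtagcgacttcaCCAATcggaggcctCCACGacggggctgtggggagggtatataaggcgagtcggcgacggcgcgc
Calr (GRCm38.p6, chr8:84846932-84847181, − strand): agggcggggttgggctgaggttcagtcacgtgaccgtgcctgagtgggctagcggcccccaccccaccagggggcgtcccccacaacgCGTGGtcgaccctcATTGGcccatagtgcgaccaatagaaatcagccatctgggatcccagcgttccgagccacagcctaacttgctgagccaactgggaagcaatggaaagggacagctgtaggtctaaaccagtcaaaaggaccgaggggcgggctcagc
The element's base nearest the start lies at −47 in Hspa5 and at −144 in Calr.

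Of the 8 genes with the element, 7 were called higher in EpSCs with a median log2 fold change of 1.22, and 2 in Bulge with a median of 1.01. Syvn1 was the 1 not called in EpSCs. Among all genes, 19.9% were called higher and 20.0% lower in EpSCs, 5.12% and 5.16% in Bulge, and 1.06% either way in Germ. The 25 genes whose window lacked it had 11 higher and 3 lower in EpSCs (median 0.52) and 5 higher and 1 lower in Bulge (median 0.72). Within the ER folding and degradation genes alone, 8 had a promoter sequence without the element, and 5 of these were higher in EpSCs (median 0.73) and 3 in Bulge (median 0.88). In Germ the median was 0.57 with the element and 0.43 without it, but 0.71 in the 8 ER folding and degradation genes without it. Of the genes outside the list with the element, 11 were in the authors' deposited table: 1 was higher (Spats2l, 1.64) and 1 lower (Adcy3, −1.38) in EpSCs, with a median of −0.05, and their medians were 0.49 in Germ and 0.37 in Bulge with 0 called. The related element ERSE-II, ATTGG and CCACG with 1 base between them, was in 12 of the 27025 genes (0.0444%), 2 of them members: Dnajb11 (ATTGGcCCACG), called in EpSCs and Bulge, and Herpud1 (ATTGGgCCACG), called in no population. The ATF4 and C/EBP core TTGCATCA was in 279 genes (1.03%), 2 of them members, Herpud1 and Chac1. These are letter matches in a short window and no measurement of binding.

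**Figure D2:**
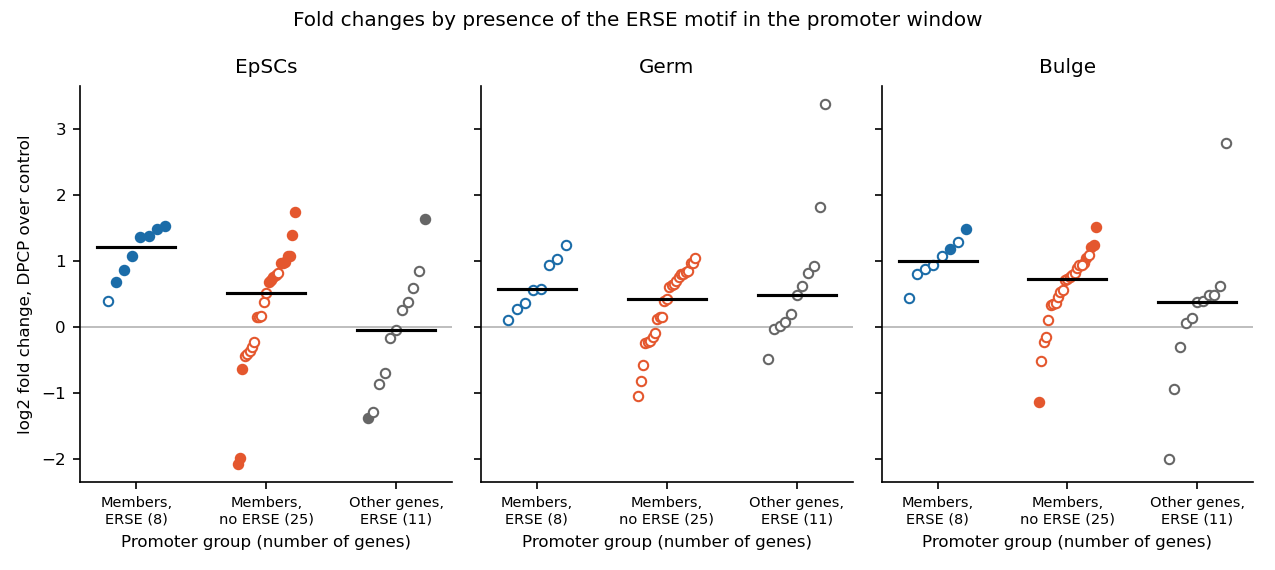
Log2 fold change of DPCP over control (vertical axis) by promoter group: the 8 members with the ERSE motif, the 25 members with a promoter sequence but no match, and the 11 other measured genes with it, in EpSCs, Germ and Bulge. Each point is a gene, filled where the adjusted p was under 0.05, and the line is the group's median: 1.22, 0.52 and −0.05 in EpSCs in that order.

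Of the sensors and factors, Xbp1 had the largest increase of all 40 genes in EpSCs. It encodes the factor made active by IRE1 splicing, and rose 3.35-fold there in the authors' deposited table (1.74, 95% interval 1.07 to 2.42, adjusted p = 2.94e-05). It stood at 0.65 in Germ (adjusted p = 0.163) and 0.94 in Bulge (adjusted p = 0.0588). Ern1, the gene of IRE1 itself, rose 1.96-fold in EpSCs (0.97, adjusted p = 0.0269) and 2.37-fold in Bulge (1.24, adjusted p = 0.031) and was at 0.40 in Germ (adjusted p = 0.552). Atf6 rose 1.92-fold in EpSCs (0.94, adjusted p = 0.00128) and was at 0.63 in Germ and 0.85 in Bulge (adjusted p = 0.288 and 0.0788). The PERK gene Eif2ak3 was called nowhere, at 0.52, 0.76 and 1.09 in EpSCs, Germ and Bulge (adjusted p = 0.0817, 0.358 and 0.0608). Atf4, the factor translated when PERK or a related kinase is active, was called nowhere either, at −0.43, −0.14 and 0.36 (adjusted p = 0.0609, 0.636 and 0.488). In EpSCs the mRNAs of Ern1, Xbp1 and Atf6 were thus called higher and those of Eif2ak3 and Atf4 were not; whether the genes differ from each other was not tested.

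The 5 targets of ATF4 and CHOP did not move as a group. Ppp1r15a encodes GADD34, which brings a phosphatase to eIF2α and restores translation. In the authors' deposited table it fell in EpSCs, 3.97-fold (log2 fold change −1.99, 95% interval −2.88 to −1.09, adjusted p = 0.000293), and stood at 0.85 in Germ and 0.34 in Bulge (adjusted p = 0.133 and 0.654). Asns, the asparagine synthetase gene, rose 2.85-fold in Bulge (1.51, adjusted p = 0.0161) and was at 0.16 in both EpSCs and Germ (adjusted p = 0.46 and 0.676). Ddit3, the CHOP gene, fell 2.19-fold in Bulge (−1.13, adjusted p = 0.042) and was at 0.16 in EpSCs and −0.24 in Germ (adjusted p = 0.68 and 0.533). Trib3, a pseudokinase gene induced by CHOP, stood at 0.81 in EpSCs just short of the threshold (adjusted p = 0.0505), and at 0.16 in Germ and 0.56 in Bulge. Chac1, a glutathione-degrading enzyme, had the widest intervals of the 5 in EpSCs and Germ and was called nowhere (−0.41, 0.64 and −0.52).

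Immediate early genes, which cell dissociation also induces, moved in the direction of Ppp1r15a and Dnajb1 in EpSCs. Of 18, 14 were lower and 2 higher, against 20.0% of all genes lower and 19.9% higher. Their median was −1.77 (Ier2 −2.01, adjusted p = 5.12e-05). In Bulge 2 of the 18 were higher and 0 lower (median 0.87, Ier5 2.01). That is 11.1% called, near the 10.3% of all genes. In Germ 0 were called (median 0.27, Nr4a1 1.85), beside 1.06% of all genes. Atf3, a stress factor that is also an immediate early gene but was counted with the stress response, fell in EpSCs by 4.46 on the log2 scale (adjusted p = 0.000193) and stood at −0.34 in Germ and 1.08 in Bulge. Their part in the values of Ppp1r15a and Dnajb1 was not tested.

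In the cytosol the co-chaperones and heat shock proteins split. Dnajb1, the HSP40 partner of HSP70 and a standard HSF1 target, had the largest decrease of the 40 genes: it fell 4.2-fold in EpSCs (−2.07, 95% interval −3.04 to −1.10, adjusted p = 0.00047) and was at −0.22 in Germ and 0.11 in Bulge (adjusted p = 0.672 and 0.887). Hsph1 encodes HSP110, which exchanges nucleotide on HSP70; in the authors' deposited table it rose 2.11-fold in EpSCs (1.07, adjusted p = 0.00347) and stood at 0.97 and 0.90 in Germ and Bulge (adjusted p = 0.154 and 0.0657). Hsf1 itself was called nowhere, at 0.08, 0.70 and 0.04 in EpSCs, Germ and Bulge (adjusted p = 0.774, 0.189 and 0.936). Bag3, another HSF1 target, which links HSP70 to autophagy, was called nowhere as well (−0.37, 0.70 and −0.15).

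The 2 stress-inducible HSP70 genes Hspa1a and Hspa1b rose 1.60-fold and 1.73-fold in EpSCs (adjusted p = 0.0117 and 0.0131). They are near-identical neighbours on chromosome 17, so how reads were divided between them is uncertain. In Germ they stood at −0.21 and 0.13, and in Bulge at 0.53 and 0.46, not called. Of the HSP90 pair, Hsp90ab1, the constitutive form, rose 1.46-fold in EpSCs (0.55, adjusted p = 0.0119) and was at −0.05 in Germ and 0.60 in Bulge (adjusted p = 0.905 and 0.173). The inducible form Hsp90aa1 was called nowhere (0.06, 0.61 and 0.14), and neither was the constitutive HSP70 gene Hspa8 (0.11, 0.21 and 0.41). The small heat shock protein gene Hspb1 was called in no population, at −0.30 in EpSCs, −1.04 in Germ and 0.79 in Bulge (adjusted p = 0.155, 0.168 and 0.121). Of the 12 cytosolic and mitochondrial genes, HSF1 group included, 5 were higher and 2 lower in EpSCs (58.3% called, beside 39.9% of all genes). In Bulge 0 of the 12 were called, beside 10.3% of all genes, though 11 had a fold change above 0 (median 0.43).

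The mitochondrial chaperonin gave an opposed pair. Hspd1 encodes the HSP60 barrel and Hspe1 its HSP10 lid, from genes that lie head to head. In the authors' deposited table Hspd1 rose 2.10-fold in EpSCs (1.07, adjusted p = 0.000486) and Hspe1 fell 1.55-fold (−0.63, adjusted p = 0.00731). Hspd1 stood at 0.80 in Germ and 0.72 in Bulge (adjusted p = 0.171 and 0.0653), and Hspe1 at −0.82 in Germ and 0.33 in Bulge (adjusted p = 0.217 and 0.534). On GRCm38, Hspd1 spans chr1:55077835-55088243 on the − strand and Hspe1 chr1:55088132-55091307 on the + strand. The heat shock element, taken as GAA, TTC and GAA with 2 bases between neighbours, was in the promoter windows of Hsph1, Hspd1 and Hspe1 among the members, and in 179 of the 27025 genes (0.662%). The stretch the pair shares is shown, with the heat shock units in capitals; it was picked after the values were seen.
Hspd1 and Hspe1 (GRCm38.p6, chr1:55088059-55088076, + strand): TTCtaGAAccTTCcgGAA
It holds 2 overlapping matches on opposite strands, upstream of the RefSeq start of both genes. They lie at −77 and −72 from that of Hspe1 and at −127 and −132 from that of Hspd1. The longer gene span of Hspd1 given above, which is from GENCODE, also contains them.

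The fold changes of all genes moved with transcript length. In the shortest decile of genes (114 to 1167 nucleotides, longest annotated transcript) the median was −0.50 in EpSCs, −0.64 in Germ and −0.37 in Bulge, and in the longest decile it was 0.17, 0.33 and 0.33. Spearman's rho between length and fold change across 13799 genes was 0.14 in EpSCs, 0.28 in Germ and 0.23 in Bulge; genes of 1 table are not independent, and no p is given. The Hspe1 transcript of 774 nucleotides is in the shortest decile with Ddit3, Hspb1 and Sdf2l1, and that of Hspd1, 2423 nucleotides, in the fourth. With fold changes centred within deciles of transcript length, an alternative added after the data were seen, Hspe1, Ern1, Hyou1 and Sel1l were no longer called in EpSCs and Ddit3, Edem1, Ern1 and Hyou1 no longer in Bulge. Newly called higher were Sdf2l1 and Trib3 in EpSCs, Sdf2l1 in Germ, and Creld2, Hsp90b1, Hspb1, Hspd1, Pdia4 and Xbp1 in Bulge. The members' counts were then 21 higher and 2 lower in EpSCs, 1 and 0 in Germ, and 12 and 0 in Bulge.

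**Figure D3:**
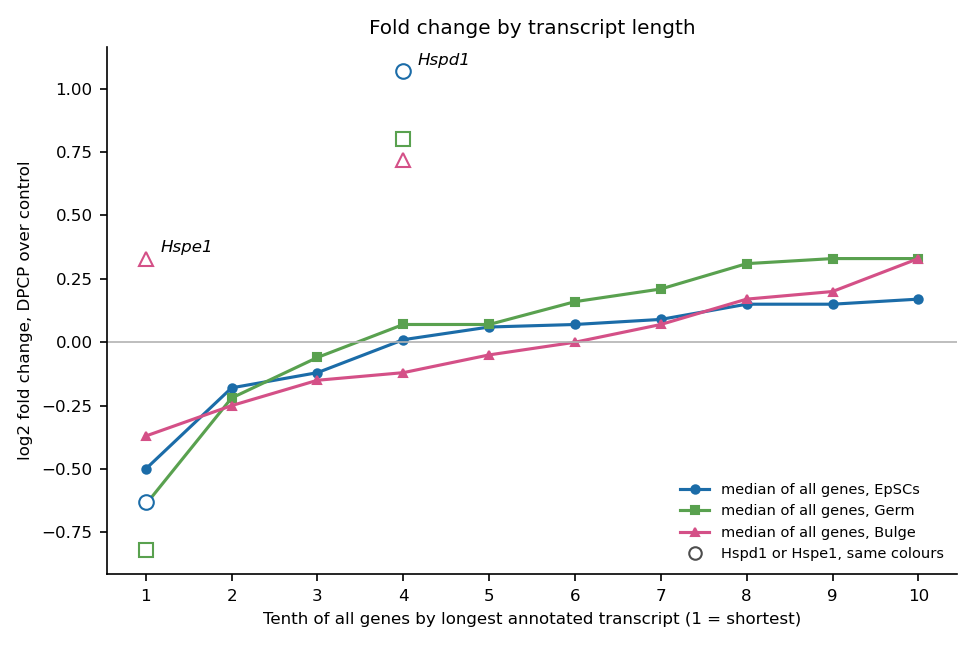
Median log2 fold change of DPCP over control (vertical axis) of all genes in deciles by longest annotated transcript (horizontal axis, 1 the shortest), as filled symbols with lines for EpSCs, Germ and Bulge, with Hspd1 and Hspe1 as open symbols in the same colours and shapes. The medians climb from −0.50, −0.64 and −0.37 in the shortest decile to 0.17, 0.33 and 0.33 in the longest, and Hspe1 sits in the shortest.

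EpSCs and Bulge shared 7 of the genes called higher: Calr, Dnajb11, Edem1, Ern1, Hspa5, Hyou1 and Manf. They are 31.8% of the 22 in EpSCs and 77.8% of the 9 in Bulge. Among all genes, 2748 were higher in EpSCs and 708 in Bulge, and 388 of these were higher in both (2.81% of all genes). All 7 belong to the ER, and the other 2 of Bulge were Sdf2l1 and Asns. The 12 genes called in no population were Atf4, Bag3, Chac1, Dnajb9, Eif2ak3, Herpud1, Hsf1, Hsp90aa1, Hspa8, Hspb1, Syvn1 and Trib3.

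Whether the response differed between populations was tested gene by gene as the difference of 2 log2 fold changes over their combined rebuilt standard error, adjusted by Benjamini-Hochberg over all genes; the test is approximate. EpSCs minus Bulge gave 3 of the 40, against 10.4% of all genes: Ppp1r15a (−2.33, adjusted p = 0.0101), Dnajb1 (−2.18, adjusted p = 0.0189) and Asns (−1.35, adjusted p = 0.0427). EpSCs minus Germ gave 4, against 12.2% of all genes: Ppp1r15a (−2.84, adjusted p = 0.000119), Dnajb1 (−1.85, adjusted p = 0.0255), Hsp90b1 (1.21, adjusted p = 0.0222) and Hspa1a (0.89, adjusted p = 0.047). Germ minus Bulge gave 1, Hspb1 (−1.83, adjusted p = 0.0449), against 5.99% of all genes. In each of the 3 the count is a share of the members below that of all genes, but not under every alternative: with t on 4 degrees of freedom Germ minus Bulge had 5 of 40 beside 1543 of all genes and EpSCs minus Germ 8 beside 2511, and with median centring Germ minus Bulge had 3 beside 900, each a slightly higher share than that of all genes.

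For most ER genes the 95% intervals of the differences between populations included 0. For Hspa5 it was −0.11 between EpSCs and Bulge (95% interval −1.15 to 0.93) and 0.12 between EpSCs and Germ (−0.90 to 1.15), and both intervals reach about 1 on the log2 scale. For Xbp1 it was 0.80 between EpSCs and Bulge (−0.16 to 1.77, adjusted p = 0.288) and 1.09 between EpSCs and Germ (0.20 to 1.99, adjusted p = 0.0968). Germ minus Bulge was −1.88 for Hyou1 and −1.52 for Manf, short of the threshold (adjusted p = 0.0694 and 0.0741). It was −1.07 for Calr and −1.03 for Herpud1, with intervals that left out 0 but not called (adjusted p = 0.124 and 0.213). The same held between EpSCs and Germ for Hyou1 (1.05), Creld2 (0.98) and Manf (0.82), with adjusted p = 0.112, 0.13 and 0.134.

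**Figure D4:**
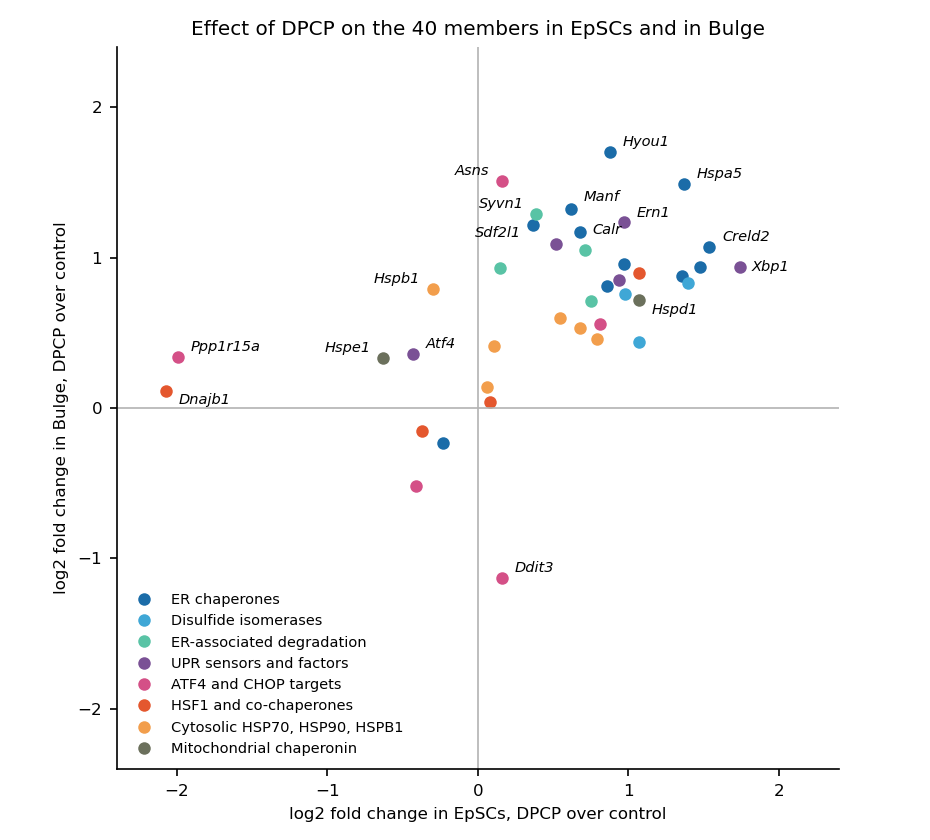
Log2 fold change of DPCP over control in EpSCs (horizontal axis) and in Bulge (vertical axis) for the 40 genes, coloured by role, with the names of the genes that stand apart. Most ER genes lie right of and above 0 on both axes, while Ppp1r15a (−1.99 and 0.34) and Dnajb1 (−2.07 and 0.11) lie far left and Ddit3 (0.16 and −1.13) far down.

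Other genes of the same pathways were counted from 7 lists drawn up by function. In EpSCs the ER lists moved mostly upward: of 30 further folding genes 16 were higher and 2 lower (median 0.57), of 26 degradation genes 13 and 2 (0.41), and of 30 translocon, signal peptidase and glycosylation genes 16 and 1 (0.45). Ero1l, the oxidase that recharges the disulfide isomerases, rose 6.03-fold (2.59, adjusted p = 6.97e-06), Erp29 2-fold, P4hb 1.75-fold and the thioredoxin-like Tmx1 1.76-fold. Edem3, a mannosidase of degradation, rose 3.06-fold (1.61, adjusted p = 0.000334), and the retrotranslocation genes Selenos, Derl2 and Derl1 rose by 0.98, 0.97 and 0.87 on the log2 scale. Tram1, at the translocon, rose 2.52-fold (adjusted p = 8.12e-05), the signal peptidase gene Spcs2 2.11-fold and the oligosaccharyltransferase gene Stt3a 1.98-fold, while the small translocon subunit gene Sec61g fell by 1.36 (adjusted p = 0.000436). In Bulge these 3 lists had 0 higher and 4 lower, all 4 in the folding list (medians 0.05, 0.30 and 0.20), and in Germ 0 called. The shares of all genes were 19.9% higher and 20.0% lower in EpSCs, 5.12% and 5.16% in Bulge, and 1.06% called either way in Germ.

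The lists outside the ER were mixed in EpSCs. Of 40 further genes of the integrated stress response, 9 were higher and 7 lower in EpSCs (median 0.03), 1 higher in Germ (Slc7a5, an amino acid transporter, 1.61, adjusted p = 0.0402) and 5 higher and 1 lower in Bulge (median 0.36). Psph, of serine synthesis, rose by 1.64 in EpSCs. Psat1 and Phgdh, of the same route, were called lower there (−0.70 and −0.73, adjusted p = 0.00371 and 0.0373). The translation repressor gene Eif4ebp1 rose by 0.94 in EpSCs, and the factor gene Cebpb by 1.45 in EpSCs and 2.38 in Bulge. Of 40 further cytosolic heat shock genes, 13 were higher and 10 lower in EpSCs (median 0.16). Fkbp5, a glucocorticoid-responsive HSP90 co-chaperone, was up 4.53-fold there (adjusted p = 2.93e-05), Hspa4l 3.61-fold and Dnaja1 2.03-fold. Hspb11, a heat shock gene by name only, was down by 1.91. In Bulge 3 of the 40 were higher and 2 lower, and in Germ 0 were called.

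The cytosolic chaperonin TRiC and its feeder prefoldin had 0 of 14 higher and 3 lower in EpSCs (median −0.29), Pfdn4 at −2.24, Pfdn5 at −1.92 and Cct4 at −0.62. In Germ 0 of the 14 were called, and in Bulge 1, Cct2 (0.78, adjusted p = 0.0489). Of 15 further mitochondrial chaperones and proteases, 6 were higher and 1 lower in EpSCs (median 0.25), among them the protease gene Afg3l2 (0.90), the mitochondrial HSP70 gene Hspa9 (0.79), Clpx (0.74) and Timm44 (0.63). None was called in Germ or Bulge. Over the 195 genes of the 7 lists, 73 were higher and 26 lower in EpSCs, 1 and 0 in Germ, and 9 and 7 in Bulge. As shares called either way these are 50.8% in EpSCs, 0.513% in Germ and 8.21% in Bulge, beside 39.9%, 1.06% and 10.3% of all genes. The stress response list alone, at 40% in EpSCs, was at the share of all genes.

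**Figure D5:**
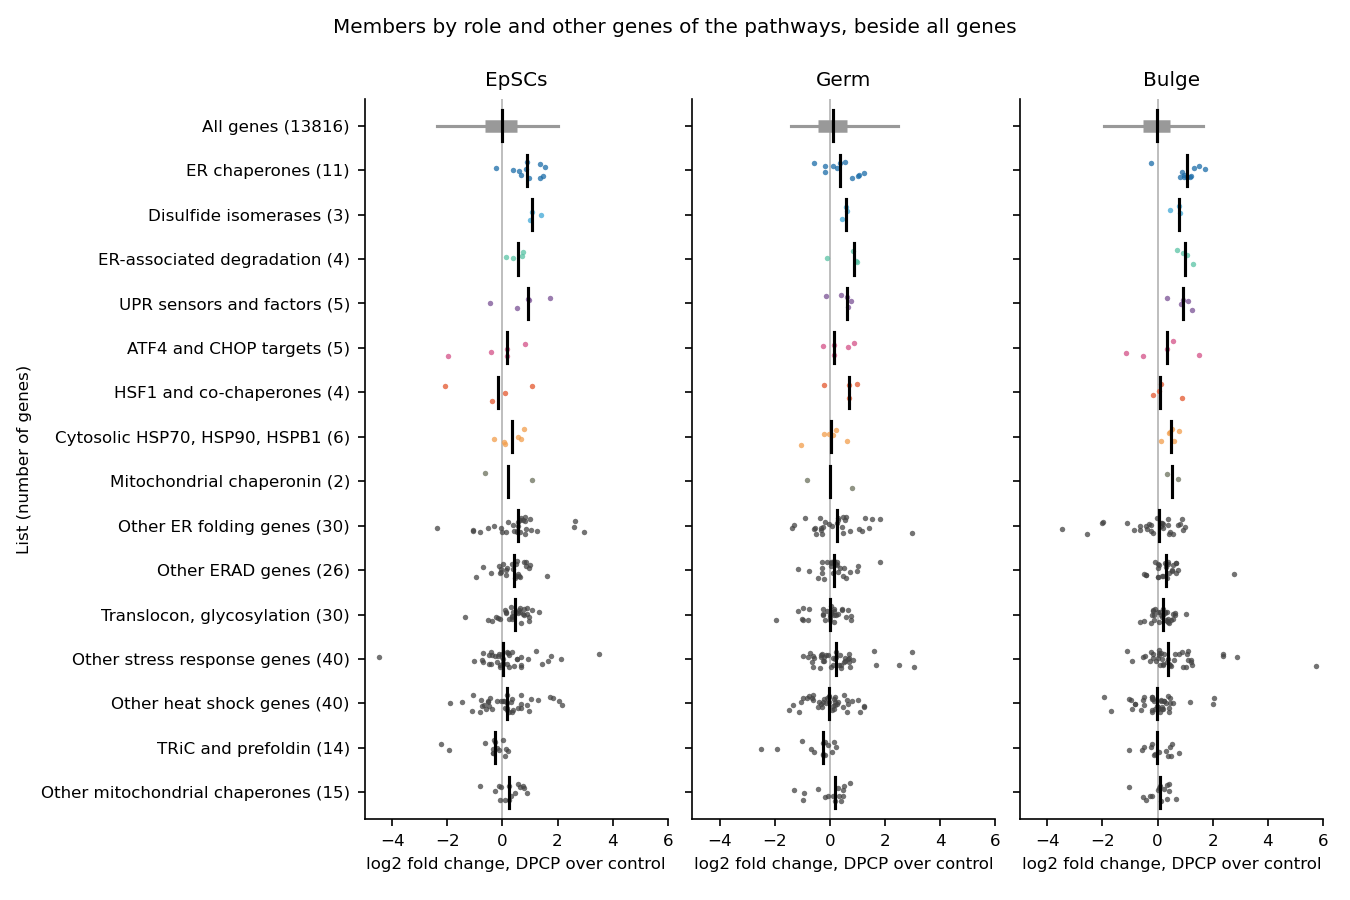
Log2 fold change of DPCP over control (horizontal axis) for the 8 roles and the 7 further lists (rows, number of genes in brackets) in EpSCs, Germ and Bulge. Each point is a gene, black ticks are medians, and the grey bar of all genes runs over its quartiles with a line from the 5th to the 95th percentile; ER chaperones have medians of 0.88, 0.37 and 1.07, and TRiC and prefoldin −0.29, −0.25 and −0.02.

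Markers of other cell types also moved. In Germ 6 of 8 melanocyte markers were higher (median 6.09, Dct 6.45) and 2 of 7 endothelial markers (median 4.60, Tie1 4.67), and the medians of 5 fibroblast and 11 leukocyte markers were 3.30 and 1.93 with 0 called. In Bulge 6 of 9 sebaceous markers were lower and 1 higher (median −3.48, Awat1 −5.35), and of 11 leukocyte markers only the neutrophil and inflamed-skin genes S100a8 and S100a9 were called, both higher. In EpSCs 5 of 8 keratinocyte markers were lower and 2 higher (median −0.66). Of 11 leukocyte markers 3 were lower and 2 higher (45.5% called, median −0.88). Of 9 bulge and germ markers 5 were higher and 2 lower (median 1.43, Cd200 5.08). Also higher in EpSCs were 3 of 9 sebaceous and 2 of 8 melanocyte markers. Of 5 fibroblast markers 1 was higher and 2 lower there. In Germ 2 of 9 sebaceous markers were higher. In Bulge 1 melanocyte, 1 fibroblast and 1 bulge and germ marker were lower. Of all genes 39.9% were called in EpSCs, 1.06% in Germ and 10.3% in Bulge. Krt15, which stands in both the keratinocyte and the bulge and germ list, fell in EpSCs by 1.71. Levels of these markers are not given here, for the reason stated above. Fewer cells of a type and less RNA per cell cannot be told apart in these data, and the part of other cell types in the members' values was not tested.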

How the data were processed

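The table held 48 columns. The 36 columns per library (TPM and scaled expression, per the file headers) carried names that match no sample label and were not used. The 9 columns used hold, per the file headers, the authors' log2 fold change of DPCP over control, p-value and adjusted p-value in each population. Per the submitters' processing notes, cutadapt 3.5, FastQC 0.11.9, STAR 2.7.6a and limma 3.60.6 are named, with no roles; for the counter, filter and model, the answer is not given in the sources used here. Depth is unknown, so precision rests on 3 samples per group and the authors' p.

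The planned fit per library was replaced by the authors' limma comparisons across all 13816 genes (adjusted p under 0.05). Standard errors were rebuilt from p by a normal score, and differences between populations adjusted by Benjamini-Hochberg. Calls of the difference test were counted on simulated data with independent normal noise. The rebuilt standard errors and intervals were not themselves checked there. Gene positions and transcript lengths came from GENCODE (GRCm38; 99.9% of IDs matched), promoters from RefSeq. Scripts used Python 3.11.15, pandas 2.3.3 and scipy 1.17.1. Members, lists and tests were chosen with earlier results of these data known. All members are named, with values for those called in any population and for 6 sensors and factors. In Germ and Bulge the disulfide isomerases are given as ranges, and Hspa1a and Hspa1b without adjusted p. Each further list is shown by its 4 genes of smallest adjusted p, and any other gene was picked after its values were seen.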

Additional observations from a re-analysis of the deposited data

Results flagged for a closer look

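The DPCP effect differed between populations for 6 genes in 8 comparisons, by the approximate test of the difference of log2 fold changes. Between EpSCs and Bulge it differed by −2.33 for Ppp1r15a (adjusted p = 0.0101), by −2.18 for Dnajb1 (adjusted p = 0.0189) and by −1.35 for Asns (adjusted p = 0.0427). Between EpSCs and Germ it differed by −2.84 for Ppp1r15a (adjusted p = 0.000119), by −1.85 for Dnajb1 (adjusted p = 0.0255), by 1.21 for Hsp90b1 (adjusted p = 0.0222) and by 0.89 for Hspa1a (adjusted p = 0.047). Between Germ and Bulge it differed by −1.83 for Hspb1 (adjusted p = 0.0449). Hspb1 was called in neither Germ (−1.04) nor Bulge (0.79), and Hspa1a shares its sequence almost wholly with Hspa1b, for which the difference between EpSCs and Germ was 0.67 (adjusted p = 0.329). Of the 8 differences, that of Ppp1r15a between EpSCs and Germ was the 1 that a Benjamini-Yekutieli adjustment kept.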

How the results depend on the processing

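The library columns could not be tied to samples, so depth could not be weighed and the alternatives on the pseudocount, the filter on low values and leaving out each replicate were not run. No paired analysis was possible because the columns carry no replicate numbers. Wherever a count or sign moved, the cause was not tested unless the alternative's own construction shows it.

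Under the stricter Benjamini-Yekutieli adjustment the calls fell to 2590 of all genes, 16 members and 54 further pathway genes in EpSCs, to 0 of all genes and 0 further genes in Germ, and to 89, 0 and 2 in Bulge. All 10 member calls of Bulge were lost under it, and 9 of EpSCs (Calr, Edem1, Ern1, Hsp90ab1, Hspa1a, Hspa1b, Hspe1, Hyou1 and Sel1l). The differences fell to 411 genes and 0 members for EpSCs minus Bulge, 95 and 0 for Germ minus Bulge, and 603 and 1 for EpSCs minus Germ. At an adjusted p under 0.10 the calls were 923, 2 (Hspa5 and Sdf2l1) and 9 in Germ, and 2689, 21 and 30 in Bulge. With a log2 fold change of at least 1 also required, EpSCs had 3073, 11 and 27. Centred within length deciles, Germ had 606, 1 (Sdf2l1) and 5. A t score with 4 degrees of freedom gave 2761 genes and 7 members for EpSCs minus Bulge, 1543 and 5 for Germ minus Bulge, and 8 members for EpSCs minus Germ. Centred on the median of all genes, which shifts Germ by 0.10, Germ minus Bulge had 3 members.

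Of all genes called in Germ, 80.1% were higher, against 57.6% after centring on the median and 45% after centring within deciles of transcript length; in Bulge the share was 49.8%, and 34.8% under Benjamini-Yekutieli. Signs were compared only for the members and for the genes of smallest adjusted p from the further lists, the immediate early genes and the markers. For differences between populations they were compared for the members alone. Every gene or difference among them whose sign turned was not called in that comparison. After length centring these were Hsp90aa1 (−0.01) and Hspb1 (0.20) in EpSCs, Ddit3 (0.40), Derl1 (−0.13), Derl2 (−0.06), Dnaja1 (−0.21) and Mgst1 (0.46) in Germ, and Dnaja1 (−0.08) and Ptprc (−0.12) in Bulge. After median centring they were Cct2 (−0.02) and Derl1 (−0.07) in Germ, and the differences of Dnajb11 (−0.01, EpSCs minus Bulge), Sel1l (−0.00), Hsph1 (−0.04) and Hspd1 (−0.04, Germ minus Bulge), and Sel1l (0.02) and Hspa8 (0.00, EpSCs minus Germ).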

Other observations

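Among the further stress-response and chaperone genes, those called in Bulge, other than Cebpb and Cct2, are given here as values from the authors' deposited table; they were picked after their values were seen. Of the genes of amino acid supply and tRNA charging that ATF4 is known to raise, the cystine transporter gene Slc7a11 rose in Bulge by 5.75 on the log2 scale (adjusted p = 0.0302), the folate enzyme gene Mthfd2 by 2.39 (adjusted p = 0.0377), and the tRNA synthetase genes Gars by 1.11 (adjusted p = 0.0351) and Aars by 1.03 (adjusted p = 0.0319). Phgdh, the first enzyme of serine synthesis, fell in Bulge by 1.12 (adjusted p = 0.0413) and in EpSCs by 0.73 (adjusted p = 0.0373). Aars also rose in EpSCs, by 0.53 (adjusted p = 0.0121), while Slc7a11 (2.13), Mthfd2 (0.24) and Gars (0.18) were not called there.

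Of the HSP70 relatives, Hspa2 rose in Bulge by 2.05 (adjusted p = 0.0023) and Hspa4 by 1.18 (adjusted p = 0.0157), and Hspa4 rose in EpSCs by 0.68 (adjusted p = 0.00292). The J protein gene Dnajb5 rose in Bulge by 2.02 (adjusted p = 0.00649). The small heat shock protein gene Cryab stood in opposite called directions, at 2.05 in EpSCs (adjusted p = 0.00289) and −1.69 in Bulge (adjusted p = 0.00507). Hspb2, of the same family, fell in Bulge by 1.96 (adjusted p = 0.0399) and was not called in EpSCs (−1.10). The 4 ER folding genes that fell in Bulge were Fkbp10 (−3.45), Fkbp7 (−2.57), Selenom (−1.99) and Serpinh1, the collagen chaperone HSP47 (−1.12). Fkbp7 also fell in EpSCs, at −2.38 (adjusted p = 0.00579), and Selenom rose there, at 2.64 (adjusted p = 0.00598). In Germ none of these genes was called.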
